A study of Sus scrofa with 32 samples.

Results

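Cytotoxic group 1 innate lymphoid cells (ILCs) of the porcine ileum were taken as the cell barcodes that carried the cytotoxic and lymphoid transcripts GZMB and CD2 and had 0 counts of 7 chosen genes of T cells, B cells, myeloid cells and epithelium. The rule asked for at least 1250 unique molecular identifiers (UMIs, each counting 1 captured RNA molecule), at least 550 genes and at most 12.5% mitochondrial UMIs. It further asked for 0 UMIs of CD3E, TRDC, CD8B, CD4, CD79B, SIRPA and EPCAM, at least 1 UMI of CD2, at least 2 of GZMB and fewer than 3 of IL22. It was met by 1372 of the 35386 ileal barcodes that passed the 3 quality limits, or 3.88%, and the whole series held 48629 such barcodes. Levels of these 10 gate genes were fixed by the rule and are given as a description, with no test.

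From each of 2 mixed-breed pigs, both 7 weeks old, 3 pieces of ileum were cut. One held Peyer's patches, the lymphoid follicles of the gut wall (PP), one was free of them (non-PP) and one was a full cross section (whole ileum), and each piece made 1 droplet library. Peripheral blood mononuclear cells (PBMCs) of both pigs made 2 more libraries, so that each group held 2 libraries, and by the labels pig 1 was a female and pig 2 a male. The labels give no treatment and no genetic change. By the labels each group held both pigs, so that the groups differed by tissue. The 4 sequencing runs of each library were read as 1 library, and pigs as labelled, not cells, are the replicates below.

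Group 1 ILCs include natural killer (NK) cells and tissue-resident ILC1s. They lack a rearranged antigen receptor, sense stressed or infected cells through activating and inhibitory receptors that signal through small adaptor proteins such as TYROBP, and kill by releasing granules that hold perforin, granulysin and granzymes, or signal by secreting interferon gamma. In the gut they lie in the epithelium and lamina propria beside T cells that use the same granule proteins, so that the absence of the T cell receptor complex is what sets them apart.

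Library totals ran from 21134542 UMIs in non-PP pig 2 to 40111934 in PP pig 1, and members of the gate had a median of 2470.5 UMIs, against 2680.5 for cytotoxic γδ T cells, 2737 for cytotoxic CD8 αβ T cells and 2900 for B cells gated in the same libraries. One library went against its label. UMIs of the Y-linked genes DDX3Y, EIF1AY and KDM5D stood at 197 CPM (counts per 1000000 UMIs of the barcodes named, here those that passed the quality limits) in the library labelled whole ileum pig 1, while the other libraries labelled pig 1 were at 0.161 (PP), 0.224 (non-PP) and 0 (PBMC) and those labelled pig 2 ranged from 108 to 215. Among the gated cells of that library the value was 173 CPM. It supplied 323 members, 23.5% of all and 69.9% of the 462 members labelled pig 1, and therefore counts below are given with it and without it. Sums per pig below follow the labels. If that library came from another animal than its label says, the ileal sums of pig 1 mix animals. Their SEs, p-values and pairing by pig then rest on that mix. Any pair of the 8 libraries shared between 21 and 80 barcode sequences, at most 1.23% of the smaller library, and at most 1 member.

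The label was checked against the receptor genes that the rule did not use, and these did not all follow it. CD3D and CD3G, which encode the δ and γ chains of the CD3 complex that carries the T cell receptor, were as high in the gate as in cytotoxic γδ T cells of the same libraries (CD3E and TRDC detected, otherwise the same rule). CD3D stood at 684 CPM over all members against 599 CPM in the γδ gate, with a ratio per library from 0.871 to 1.28. CD3G stood at 2090.3 against 1882 CPM, with ratios from 0.779 to 1.14. At least 1 UMI of CD3D or CD3G was found in 84.6% to 96% of members per library, and in 7.68% to 11.1% of B cells (CD79B detected, with CD3E, CD2 and GZMB at 0) in the 4 libraries that held many of them. Without those limits of 0 the share in CD79B barcodes was 12.3% to 17.8% in these libraries, 19.2% in non-PP pig 1 and 32.3% in non-PP pig 2. Among blood cells that met the same rule, a UMI of CD3D or CD3G was found in 79.9% (pig 1) and 86.7% (pig 2). The study itself reported CD3G and CD247 in ileal group 1 ILCs that largely lacked CD3E. Other genes of the T cell receptor pathway were lower than in γδ T cells. CD247, the CD3 ζ chain, was at 0.339 of the γδ level, the kinase ZAP70 at 0.236 and the adhesion receptor CD6 at 0.154, each lower in all 6 libraries. LAT, an adaptor, was at 0.548, the scavenger receptor CD5 at 0.364 and CD8A at 0.387, each lower in 5 of 6 libraries, and the exception for CD5 was non-PP pig 1, where the ratio was 1.68. The constant regions of the α, β and γ receptor chains are not named in the matrices, and they were not used here. NCR1, the NK receptor NKp46, was at 0 in 4 of the 6 ileal libraries, EOMES was at 0 in 3, and TBX21 (T-bet), a transcription factor of group 1 ILCs, lay between 14.4 and 34.9 CPM. The cells are therefore called CD3E-negative cytotoxic cells below.

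Some T cells can meet the rule because CD3E was not captured. Among barcodes with CD8B and at least 2 GZMB UMIs, CD3E was at 0 in 4.33% to 5.78% in the ileal libraries, and among those with TRDC in 1.97% to 13.4%. Scaling the barcodes that had CD3E but neither TRDC nor CD8B by the CD8B rate gave 12.6 barcodes in PP pig 1, 15.8 in PP pig 2, 37.7 in non-PP pig 1, 42.1 in non-PP pig 2, 30.1 in whole ileum pig 1 and 12.8 in whole ileum pig 2. Relative to the members, these numbers were 48.5%, 16.7%, 33.4%, 6.17%, 9.32% and 9.7% in the same order. With the rate among TRDC barcodes, chosen after seeing the data, they were 26%, 13.2%, 14.8%, 16.9%, 14.9% and 20.6%, so that the order of the libraries depended on the rate used. Blood cells of the same gate, with which the members are compared below, had higher rates. In blood CD3E was at 0 in 8.12% (pig 1) and 8.13% (pig 2) of the CD8B barcodes and in 15.1% and 37.4% of the TRDC barcodes, and relative to the blood cells of the gate the scaled numbers were 21.1% and 6.19% at the CD8B rate and 42.5% and 41.7% at the TRDC rate. Both rates take every barcode with CD8B or TRDC as a T cell. Whether the barcodes with TRDC and no CD3E were T cells was not tested, so that the scaled numbers cannot be read as counts of T cells. The part of T cells that met the rule in the differences between ileum and blood was not tested. At least 1 UMI of CD5 or CD6 was found in 26.5% of members of non-PP pig 1 and 4.54% of those of non-PP pig 2, with the other libraries between 8.05% and 12.1%.

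CD3E-negative cytotoxic cells were unevenly spread over the libraries. They made 0.354% of quality-passing barcodes in PP pig 1 (26 of 7337, 95% Clopper-Pearson interval 0.232% to 0.519%) and 1.38% in PP pig 2 (95 of 6872, 1.12% to 1.69%). In non-PP tissue they made 2.89% in pig 1 (113 of 3908, 2.39% to 3.47%) and 18.1% in pig 2 (683 of 3776, 16.9% to 19.4%). Whole ileum held 5.58% in the library labelled pig 1 (323 of 5789) and 1.71% in pig 2 (132 of 7704). Non-PP tissue exceeded PP tissue in both pigs, by 8.16-fold in pig 1 and 13.1-fold in pig 2, and non-PP pig 2 alone supplied 49.8% of all members. The intervals cover counting error only.

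The mean share was 0.868% ± 0.727 (SD, n = 2) in PP and 10.5% ± 10.7 (SD, n = 2) in non-PP libraries. The difference of 9.62 percentage points had a two-sided exact permutation p of 0.333, which is the smallest that 2 libraries against 2 can give. Pairing the libraries by pig gave differences of 2.54 and 16.7 percentage points, and without non-PP pig 2 the difference was 2.02. Because B cells fill the follicles of Peyer's patches, the share was also taken among barcodes with CD79B at 0. Of these, members made 1.03% and 3.87% in PP, 2.92% and 18.5% in non-PP, and 9.78% and 6.01% in whole ileum (pig 1 and pig 2). The PP and non-PP groups overlapped, and the ratio was 2.85-fold in pig 1 and 4.79-fold in pig 2 (exact permutation p = 0.667). The part of B cells in the difference was not tested. Among GZMB-expressing barcodes that met the gate apart from CD3E, TRDC and CD8B, non-PP exceeded PP by 1.16-fold in pig 1 and 2.04-fold in pig 2. Blood barcodes that met the same rule made 5.8% (374 of 6443) of PBMCs in pig 1 and 10.1% (686 of 6800) in pig 2.

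**Figure D1:**
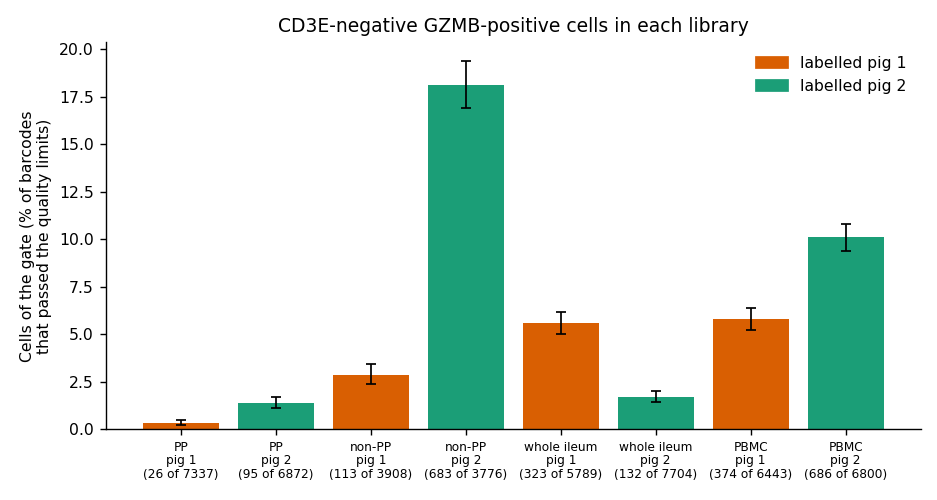
CD3E-negative cytotoxic cells as a percent of the barcodes that passed the quality limits, in each of the 8 libraries, with colors for the labelled pig. Bars give the share and error bars its 95% Clopper-Pearson interval, which covers counting error only. The tallest bar is non-PP pig 2 at 18.1% and the lowest is PP pig 1 at 0.354%.

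GZMB, the granzyme that the rule asks for and whose identifier carries the symbol GZMH in the name table, was far above the threshold of 2 UMIs in most ileal members. The median per member was 42 and 55 UMIs in PP, 31 and 82 in non-PP and 77 and 54 in whole ileum (pig 1 and pig 2), while blood cells of the same gate had medians of 5 and 6. In the ileum 76.9% to 92.8% of members per library had 10 UMIs or more, and in blood 17.1% and 21.6%. Of ileal barcodes that met every other part of the rule, 221 had 0 GZMB UMIs, 105 had 1 and 41 had exactly 2. GNLY, which encodes the pore-forming granule protein granulysin, stood at 189 CPM with 0 GZMB UMIs, 233 with 1, 951 with 2 and 38357 over all members. It was higher in members than in barcodes with 0 GZMB UMIs in all 6 ileal libraries.

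**Figure D2:**
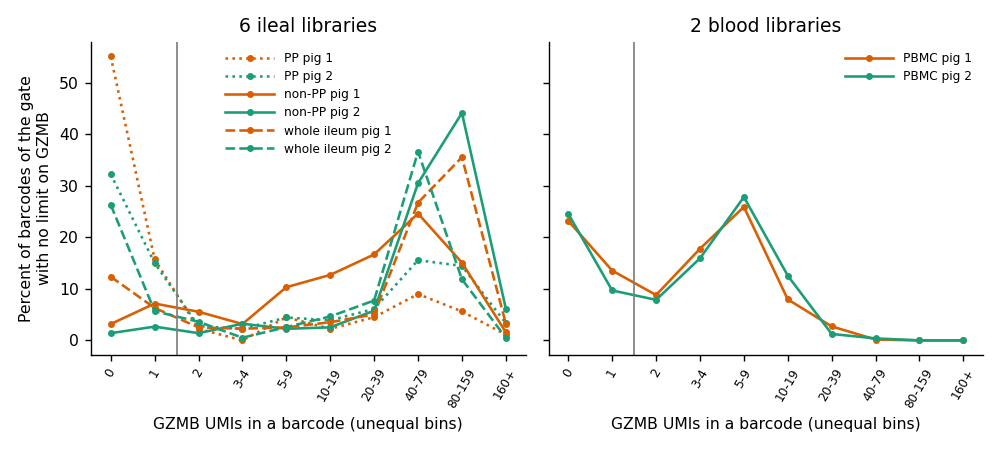
GZMB UMIs per barcode among barcodes that met every other part of the rule, for the 6 ileal and the 2 blood libraries. The x axis has unequal bins, the y axis is the percent of those barcodes, and the vertical line marks the limit of the rule. Every ileal library has a peak between 40 and 159 UMIs, the PP and whole ileum libraries have another at 0, and in blood the peaks lie at 0 and between 5 and 9.

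The 138 members with 2 to 9 GZMB UMIs (10.1%) differed from the 1234 with 10 or more (89.9%) in other genes as well. GNLY stood at 2754 against 42679 CPM, perforin (PRF1) at 176 against 526 CPM and the granule membrane protein NKG7 at 836 against 3024 CPM. CD3G was also lower in the low-GZMB members, at 685 against 2261 CPM, while CTSW (the lymphocyte protease cathepsin W) was higher at 1108 against 129.6 CPM. These 5 genes differed in the same direction in all 6 libraries. XCL1, a chemokine for dendritic cells, was at 568 against 143 CPM and FCGR3A (the Fc receptor CD16) at 1847 against 397 CPM, both higher in the low-GZMB members of 5 libraries and lower in those of PP pig 1 (0 against 178 and 1066 against 1169 CPM). TCF7, a transcription factor of less differentiated lymphocytes, was at 186 against 33.4 CPM, higher in all 6 libraries. JCHAIN, a transcript of antibody-secreting cells, was lower in the low-GZMB members of 5 libraries and higher in those of whole ileum pig 2 alone, where 13 cells reached 38151 CPM against 329. These values were chosen by GZMB and carry no test.

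GNLY was detected in 61.5% and 76.8% of members in PP, 85.8% and 99% in non-PP and 92% and 87.1% in whole ileum, and after each cell was thinned to 1250 UMIs in 61.5%, 74.7%, 76.1%, 96.2%, 89.8% and 86.4%. B cells, which should lack it, were gated by at least 2 CD79B UMIs and 0 UMIs of CD3E, CD2 and GZMB, so that they were chosen for little RNA of cytotoxic cells. Thinned, these carried a GNLY UMI in 7.95% (PP pig 1), 10.1% (PP pig 2), 27% (whole ileum pig 1) and 15.6% (whole ileum pig 2). Barcodes with at least 2 CD79B UMIs and no other gene limit, a class added after seeing the data that can hold doublets, carried a thinned GNLY UMI in 8.27%, 11.5%, 27% and 16.4% in the same order, in 34.6% of 26 barcodes in non-PP pig 1 and in 75.8% of 62 in non-PP pig 2. GZMB, on which the rule rests, was found in 12.2% to 28.9% of that class in the PP and whole ileum libraries, in 38.5% in non-PP pig 1 and in 53.2% in non-PP pig 2, thinned. The share of GNLY-positive members thus stood over a high background in non-PP pig 2, the library with most members, where GNLY also reached 24742 CPM among barcodes under 100 UMIs. PRF1 was detected in 45.1% to 68.4% of members and, thinned, in 30.1% to 47.7%, against 0.283% to 0.393% of thinned B cells in the PP and whole ileum libraries and 0% to 1.15% of barcodes chosen by CD79B alone in the 6 ileal libraries. KLRK1 (NKG2D), a receptor for stress ligands, was found in 38.5% to 76.6% of thinned members and 0.656% to 1.95% of thinned B cells, or 1.74% to 7.69% of those chosen by CD79B alone. TYROBP, the adaptor DAP12, was found in 24.8% to 43.9% of thinned members and 2.55% to 4.68% of thinned B cells, or 2.62% to 8.06% of those chosen by CD79B alone.

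To ask how the ileal cells differed from blood cells that met the same rule, UMIs were summed per pig over the ileal members and over the blood barcodes of the same gate, and tested with edgeR's quasi-likelihood test with Benjamini-Hochberg adjustment. Fewer cells of a subtype and less RNA per cell cannot be told apart in such sums. Of 8836 genes tested, 939 were higher in ileum (10.6%) and 992 were lower (11.2%), 21.9% in all. Without the library labelled whole ileum pig 1 the counts were 449 and 448, of which 445 and 445 were among those of the full data. Of the 62 called genes described below, 53 kept their call without that library. For 61.8% of the genes tested, the sums per pig of ileum and blood did not overlap, so that a lack of overlap was common. Where overlap is given for a gene below, it is by library, and the share of all genes by library is not given.

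Genes of tissue residence and egress moved in both directions, with 9 of the 24 tested members of that list higher in ileum and 10 lower (list median log2 fold change -0.79, all genes 0.00). ITGAE, the αE integrin chain that binds epithelial E-cadherin, stood at 318, 419.7, 450.5, 482, 477 and 387 CPM in PP pig 1, PP pig 2, non-PP pig 1, non-PP pig 2, whole ileum pig 1 and whole ileum pig 2, and at 22.9 and 17.2 CPM in blood of pig 1 and pig 2. All 6 ileal libraries lay above both blood libraries. ITGAE rose by 4.45 ± 0.29 on the log2 scale (SE, adjusted p = 1.16e-05) and by 4.40 without whole ileum pig 1. CD69, which retains lymphocytes in tissue, rose by 4.25 ± 0.24 (adjusted p = 5.11e-06). The chemokine receptor CXCR4 rose by 3.80 ± 0.20 and RGS1, a brake on chemokine receptor signaling, by 3.76 ± 0.15. CCR9, the receptor for the gut chemokine CCL25, rose by 4.27 ± 0.34 and GPR183, a receptor for oxysterols, by 3.78 ± 0.35.

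The genes that were lower in ileum included CX3CR1, S1PR5, KLF2 and integrin chains. CX3CR1, the fractalkine receptor of patrolling cells, was at 0 in 3 ileal libraries, at 0.516, 3.55 and 10.5 CPM in non-PP pig 2, whole ileum pig 1 and whole ileum pig 2, and at 421 and 351 CPM in blood. The groups did not overlap, and CX3CR1 fell by 7.72 ± 0.31 (SE, adjusted p = 1.84e-06). S1PR5, a sphingosine-1-phosphate receptor by which NK cells leave tissue, fell by 6.94 ± 0.28 (adjusted p = 1.84e-06), and KLF2, the transcription factor that maintains such receptors, fell by 5.11 ± 0.31. The β2 integrin chain ITGB2 fell by 5.38 ± 0.30, its partners ITGAM by 4.49 ± 0.37 and ITGAL by 1.50 ± 0.13, and ITGA4, an integrin chain for entry into tissue, fell by 3.09 ± 0.24.

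Among the cytotoxic effectors, 6 of 17 tested entries were higher in ileum and 5 lower (list median 0.17). GZMA, which encodes granzyme A, has 2 entries in the annotation, between which reads of similar sequence may have been split, so that the value of each is uncertain. GZMA (ENSSSCG00000016902) stood at 8981, 15113, 10122, 20485, 20022 and 17709 CPM in the ileal libraries in the order given above and at 18.6 and 26.6 CPM in blood, with no overlap. It rose by 9.51 ± 0.22 (adjusted p = 4.37e-08), and GZMA (ENSSSCG00000016903) rose by 2.74 ± 0.18 (adjusted p = 1.27e-05). SRGN, the proteoglycan that packs granules, rose by 1.82 ± 0.15, and CTSC, the protease that activates granzymes, by 1.08 ± 0.14. CTSW fell by 3.11 ± 0.19 (adjusted p = 7.58e-06). GZMM, granzyme M, fell by 3.92 ± 0.49 (adjusted p = 0.00057), and without whole ileum pig 1 its log2 fold change was -3.23 with an adjusted p of 0.0556. GNLY was at 23749 to 41122 CPM in the ileal libraries and at 37048 and 45541 CPM in blood, and its log2 fold change was -0.25 ± 0.13 (adjusted p = 0.227). PRF1 (0.19 ± 0.21) and NKG7 (0.17 ± 0.17) did not pass the test either, and both changed sign without that library (-0.01 and -0.02).

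Of 16 NK receptors and adaptors tested, 3 were higher in ileum and 8 lower (list median -1.32). NCR1 held 2 UMIs over all ileal members (0.552 CPM) against 176 in blood (59.8 CPM), a ratio of 108 with a counting interval of 29.6 to 902. NCR3, the related receptor NKp30, fell by 5.08 ± 0.25 (adjusted p = 2.77e-06) and KLRG1, an inhibitory receptor of mature NK cells, by 6.97 ± 0.38 (adjusted p = 4.78e-06). HCST, the adaptor DAP10 that serves NKG2D, fell by 3.67 ± 0.21, and CD226 by 1.84 ± 0.15. FCGR3A fell by 2.09 ± 0.28 (adjusted p = 0.000891), and its log2 fold change was -1.29 with an adjusted p of 0.176 without whole ileum pig 1. KLRB1, whose product is CD161, fell by 2.46 ± 0.59 (adjusted p = 0.0165), a call that was lost without that library (adjusted p = 0.151). CD96, a receptor for nectins, rose by 2.55 ± 0.19, and CD244, a SLAM family receptor, by 1.07 ± 0.19, the latter with an adjusted p of 0.0745 without that library. KLRK1 lay between 765 and 1351 CPM in ileum and at 1271 and 1259 CPM in blood, with a log2 fold change of -0.16 ± 0.21. FCER1G, the Fc receptor γ chain that pairs with CD16, had 0.18 ± 0.31. The counting interval of NCR1 and those given below rest on UMIs pooled over cells and pigs. They leave out the spread between animals, as do the bounds given below for genes with no UMIs in blood.

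Members of the CD3 complex were higher in the ileal cells than in the blood cells of the same gate. CD3G was at 1343 to 2227 CPM in the 6 ileal libraries and at 739 and 783 CPM in blood, and rose by 1.31 ± 0.13 (adjusted p = 0.000141). CD3D rose by 1.85 ± 0.17 and CD247 by 1.32 ± 0.17, with adjusted p of 9.98e-05 and 0.000647. CD8A fell by 1.65 ± 0.32 (adjusted p = 0.00636), and without whole ileum pig 1 its log2 fold change was -0.90 with an adjusted p of 0.369. In all, 4 of the 11 tested genes of the list rose and 1 fell (list median 0.76). The other gene that rose was CD6, at 0 to 67.8 CPM in the ileal libraries and at 5.46 and 6.9 CPM in blood (pig 1 and pig 2).

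Of 23 lymphoid transcription factors tested, 6 rose and 8 fell (list median 0.08). TBX21 fell by 3.09 ± 0.16 (adjusted p = 3.88e-06), HOPX by 2.99 ± 0.19 and ZNF683, which encodes Hobit, by 7.01 ± 0.32. EOMES, the second T-box factor of NK cells, fell by 3.91 ± 1.03 (adjusted p = 0.0254, and 0.139 without whole ileum pig 1). Without the members of pig 2 the log2 fold change of EOMES was -2.36. NFIL3, needed for NK cell and ILC development, rose by 1.48 ± 0.17, ZBTB16, which encodes PLZF, by 1.82 ± 0.20, and AHR, a sensor of dietary and microbial ligands, by 2.57 ± 0.45 (adjusted p = 0.0552 at 2500 UMIs or more). IL2RB, the β chain of the receptors for interleukin 2 and 15, rose by 0.69 ± 0.14 among 6 of 13 tested cytokine receptors that rose and 3 that fell (list median 0.77), a call lost without that library (adjusted p = 0.174). KIT, the stem cell factor receptor, was called higher too, with 2 UMIs in blood and a ratio of 65.4 (counting interval 17.8 to 545). Among checkpoint and activation genes 4 of 14 rose and 1 fell (list median 0.82), with ENTPD1 (CD39, which degrades extracellular ATP, 5.83 ± 0.26) and TNFRSF18 (GITR, 5.09 ± 0.50) among those that rose.

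Immediate early and stress genes rose in 9 of 13 tested and fell in 0 (list median 2.26). NR4A2, an orphan nuclear receptor, rose by 4.99 ± 0.30, FOS by 3.33 ± 0.40 and the chaperone HSPA5 by 2.26 ± 0.26. Tissue dissociation was a step for ileum and not for blood, and its part in these values cannot be told apart from that of the tissue. Of 12 cell cycle genes 0 rose and 3 fell (list median -1.12), STMN1 among them (-1.63 ± 0.36, adjusted p = 0.0121, and 0.118 without whole ileum pig 1). Of 12 interferon-stimulated genes 0 rose and 4 fell (list median -0.41), of 14 cytokines and chemokines 1 rose and 2 fell (list median -0.25), and CCL5, a chemokine for T cells, was at 18466 to 29429.6 CPM in ileum and 25049 and 14033 CPM in blood.

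The 10 genes with the largest rises included several that were not seen in blood at all. CDH17, an intestinal cadherin, was at 101 to 279.6 CPM in all 6 ileal libraries and had 0 UMIs in both blood libraries, so that it was at least 249-fold higher in ileum against a floor of 3 UMIs over the blood group. By the same bound GPR82, an orphan receptor, was at least 199-fold higher, GPRC5D, another orphan receptor, at least 69.3-fold and TMIGD2, a costimulatory receptor, at least 59.6-fold. SMPDL3A, a phosphodiesterase, rose by 7.32 ± 0.41, the drug efflux pump ABCB1 was 165-fold higher (counting interval 56.2 to 803, 3 UMIs in blood), and CD200R1, an inhibitory receptor, rose by 6.54 ± 0.39. RHOD, a small GTPase, was 171-fold higher with 1 UMI in blood (30.3 to 6769). FABP6, the bile acid-binding protein of ileal enterocytes, rose by 8.46 ± 1.33 (adjusted p = 0.0022), and was at 3149 CPM in members of non-PP pig 1 against 97.5 to 462 in the other ileal libraries. Barcodes under 100 UMIs, which hold free RNA, also had most FABP6 in non-PP pig 1, at 55458 CPM against 2039 to 8043 in the others, and FABP6 had no value after the ambient profile was subtracted. The 10 largest falls also held PTH1R, the parathyroid hormone receptor (-6.47 ± 0.38), and 4 genes with 1 to 3 UMIs in the ileal members. LY6D, a surface protein, was 268-fold higher in blood (counting interval 91.2 to 1301), the transcription factor RFX2 102-fold (34.4 to 497, not called by DESeq2, adjusted p = 0.477), and PPBP and FCN1, transcripts of platelets and monocytes, 244-fold (67.2 to 2025) and 246-fold (43.7 to 9774). PPBP stood at 62.2 and 168 CPM in blood cells of the gate, at 25.7 and 120.2 CPM in blood B cells and at 1135 and 3165 CPM in blood barcodes under 100 UMIs (pig 1 and pig 2). FCN1 stood at 14.2 and 92.2, 26.2 and 76.9, and 89.5 and 478 CPM in the same order. The levels in blood cells of the gate and in blood B cells overlapped for both genes, and the part of free RNA in these falls was not tested.

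**Figure D3:**
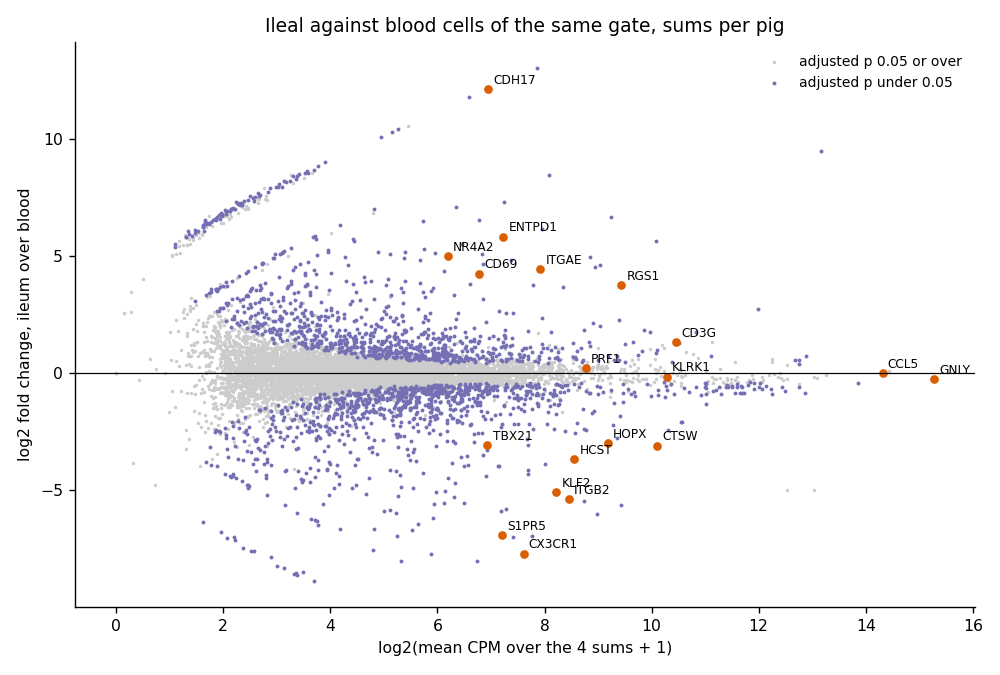
Each point is 1 of 8836 genes, with log2(mean CPM over the 4 sums + 1) on the x axis and the log2 fold change of ileal over blood cells of the same gate on the y axis. Purple points passed an adjusted p of 0.05 by edgeR's quasi-likelihood test, and orange points are named. ITGAE, CD69 and CDH17 lie above 4, CX3CR1 and S1PR5 below -6, and GNLY, PRF1 and KLRK1 near 0. For genes with 0 UMIs in 1 group, such as CDH17, the height depends on the prior count.

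Members were compared with ileal cytotoxic γδ T cells, gated by the same limits on GZMB and CD2 but with CD3E and TRDC detected (2014 barcodes). Of 8825 genes tested in the same fit, 43 were higher in the CD3E-negative cells (0.487%) and 33 were lower (0.374%), 0.861% in all. With the pig as a block, that is, pairing the classes of each pig, the counts were 121 and 212. Without the library labelled whole ileum pig 1 they were 2 and 0, GPRC5D and LTC4S being the genes that passed. The other called genes named in the next paragraphs kept their direction without it but did not pass the test. In the full data the sums per pig of members and γδ T cells did not overlap for 42.3% of the genes tested. Without the members of pig 2, 4 of the 27 called genes that the naming rule gave passed.

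GNLY led the effectors. It stood at 24301, 29404, 23749, 40595, 41122 and 38618 CPM in the members, in the library order given above, and at 5064, 6370.0, 8729.9, 10477, 8255 and 7911 CPM in γδ T cells. All 6 libraries had more GNLY in the CD3E-negative cells, and GNLY rose by 2.00 ± 0.14 on the log2 scale (SE, adjusted p = 0.000524) and had 1.75 with an adjusted p of 0.106 without whole ileum pig 1. GZMA (ENSSSCG00000016902) rose by 1.32 ± 0.15 and GZMA (ENSSSCG00000016903) by 1.02 ± 0.17, while CTSW fell by 1.64 ± 0.18 (-0.87 without whole ileum pig 1). With these, 3 of 17 tested effectors were higher and 1 lower (list median 0.31, all genes -0.01). PRF1 (0.65 ± 0.21, adjusted p = 0.251) and NKG7 (0.74 ± 0.17, adjusted p = 0.099) did not pass, although their CPM was above that of the γδ gate in all 6 libraries.

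Of the 16 NK receptors and adaptors, 1 was higher and 1 lower than in γδ T cells (list median -0.10). TYROBP stood at 404, 449, 303, 505, 471 and 533 CPM in the members and at 69.1, 59.3, 52.1, 86.8, 42.1 and 36.4 CPM in γδ T cells, with no overlap, and rose by 2.77 ± 0.44 (adjusted p = 0.0239). With the ambient profile subtracted its log2 fold change was 3.20 with an adjusted p of 0.114. TYROBP is also on the myeloid list, of whose 6 tested genes it alone rose and 0 fell (list median 2.61). Over all libraries CST3 stood at 298 CPM in members against 96.2 CPM in the γδ gate, and AIF1 at 25.9 against 3.49 CPM. C1QA stood at 22.6 against 3.18 CPM, while LYZ was lower in members, at 2.76 against 5.24 CPM. These genes were uneven over the libraries. CST3 held 640 UMIs in members of whole ileum pig 1 and 7 to 249 in the other ileal libraries, and C1QA 76 in non-PP pig 2 and 0 to 3 in the others. AIF1 held 43, 28 and 20 UMIs in non-PP pig 2, whole ileum pig 1 and whole ileum pig 2, and 0 to 2 in the others. The part of myeloid cells in the rise of TYROBP was not tested. NCR3 fell by 2.04 ± 0.30. KLRK1 had a log2 fold change of -0.10 ± 0.21 and FCER1G 0.46 ± 0.31, neither past the test. SYK, a kinase that acts downstream of TYROBP, rose by 2.94 ± 0.40 (adjusted p = 0.0137). GPRC5D rose by 3.95 ± 0.27 (adjusted p = 0.000913), and it stood at 38.2 to 130.0 CPM in members and 0 to 6.06 CPM in γδ T cells. LTC4S, the leukotriene C4 synthase, rose by 2.40 ± 0.19 (adjusted p = 0.00105), the growth factors PDGFA and MDK by 2.87 ± 0.38 and 2.31 ± 0.32, SMPDL3A by 2.13 ± 0.23, PKIB, an inhibitor of protein kinase A, by 1.90 ± 0.34 and ZBTB16 by 1.87 ± 0.18.

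Among the genes lower than in γδ T cells, CCR9 fell by 2.37 ± 0.16 (adjusted p = 0.000524) and ITGA4 by 1.51 ± 0.24, and of the 24 residence and trafficking genes 0 were higher (list median -0.05). ITGAE had 0.06 ± 0.23. Of 23 transcription factors (list median 0.06) 1 rose (ZBTB16) and 2 fell, TCF7 (-1.64 ± 0.28) and ZNF683 (-3.13 ± 0.39). Of 14 checkpoint and activation genes (list median -0.70) ENTPD1 rose (1.34 ± 0.17) and HAVCR2, the inhibitory receptor TIM-3, fell (-1.51 ± 0.25, adjusted p = 0.0567 with the ambient profile subtracted). The other large falls were those of MFAP5, a matrix protein (-2.72 ± 0.46), PLVAP, a membrane protein best known from endothelium (-2.11 ± 0.24), UBXN11 (-1.93 ± 0.29), the adaptors PSTPIP1 (-1.88 ± 0.16) and LAX1 (-1.52 ± 0.22), and CD52 (-1.64 ± 0.20), a lymphocyte surface glycoprotein. XCL1 was at 110.1 to 339 CPM in members and 679 to 902 CPM in γδ T cells, with no overlap, yet missed the threshold (-2.31 ± 0.46, adjusted p = 0.0616). Of the cytokine and chemokine, cytokine receptor, cell cycle, immediate early and stress, and interferon-stimulated lists, 0 genes passed in either direction.

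**Figure D4:**
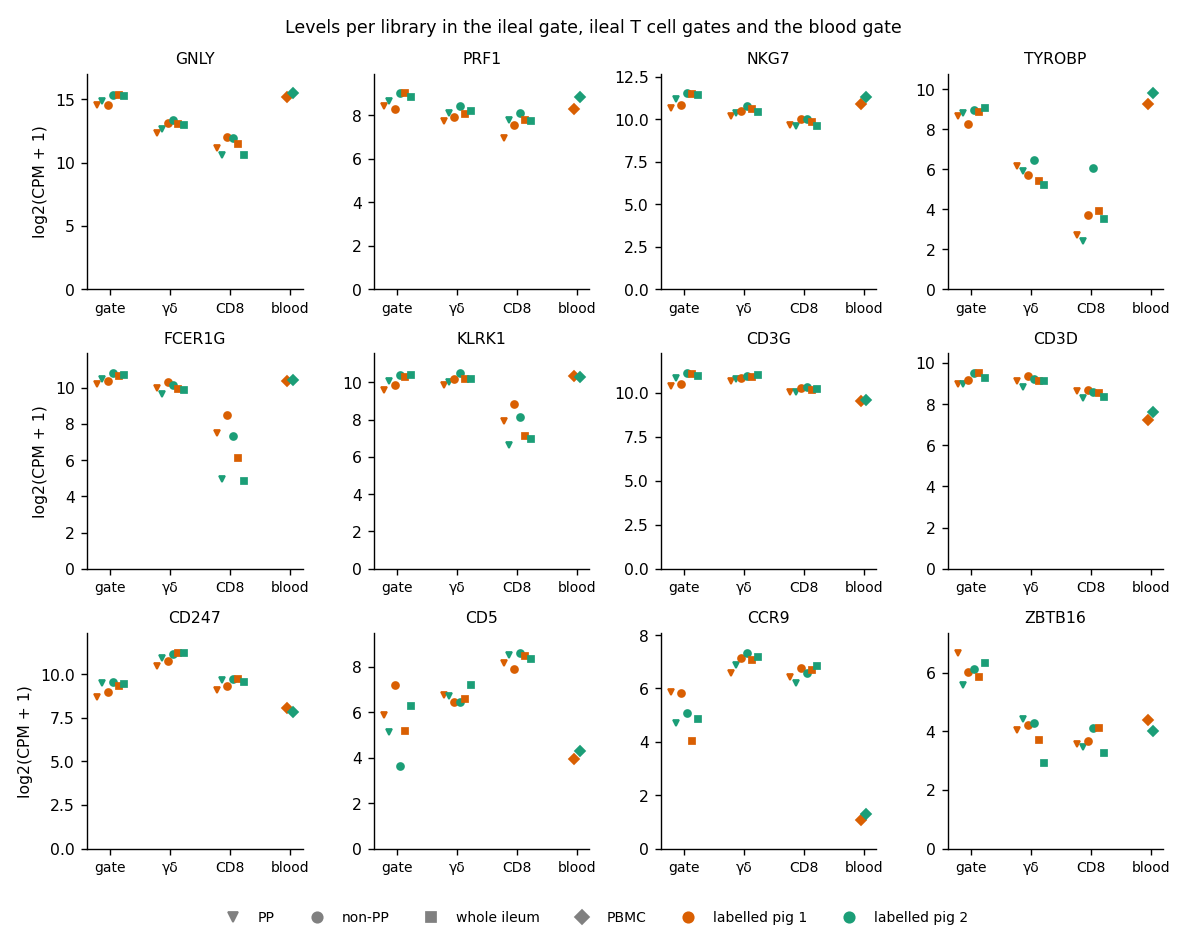
Levels as log2(CPM + 1) of 12 genes in each library, for CD3E-negative cytotoxic cells of the ileum (gate), ileal cytotoxic γδ and CD8 αβ T cells, and blood cells of the same gate. Marker shapes give the dissection and colors the labelled pig, and each y axis starts at 0. GNLY and TYROBP lie above both T cell gates in every ileal library, while CD3G and CD3D lie at the level of γδ T cells.

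Members were also compared with ileal cytotoxic CD8 αβ T cells (CD3E and CD8B detected, 1865 barcodes). Of 8825 genes, 477 were higher in the CD3E-negative cells (5.41%) and 467 lower (5.29%), 10.7% in all, and with the pig as a block 718 and 891. Without the library labelled whole ileum pig 1 the counts were 126 and 34, and 27 of the 55 called genes named here kept their call. Because the members and fit are shared with the γδ comparison, the lists are given side by side and are not independent of each other. In the full data the sums per pig of members and CD8 T cells did not overlap for 55.6% of the genes tested.

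Effectors were higher in 7 of 17 tested and lower in 3 (list median 0.42, all genes -0.01). GNLY stood at 1516 to 4131 CPM in CD8 T cells, below every library of the members, and was higher by 3.46 ± 0.15 (SE, adjusted p = 1.25e-05, and 3.18 without whole ileum pig 1). GZMA (ENSSSCG00000016902) rose by 2.06 ± 0.15, GZMA (ENSSSCG00000016903) by 1.55 ± 0.17, NKG7 by 1.39 ± 0.17 and PRF1 by 1.03 ± 0.21, the last 2 losing the call without that library (adjusted p = 0.0595 and 0.193). GZMM fell by 3.03 ± 0.48, GZMK, granzyme K, by 2.71 ± 0.41 and CTSW by 1.58 ± 0.18. These 3 also lost the call without that library, with log2 fold changes of -2.32, -2.18 and -0.75 (adjusted p = 0.266, 0.167 and 0.475).

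NK receptors and adaptors were higher in 7 of 16 and lower in 6 (list median 0.55). TYROBP was at 4.28 to 66.5 CPM in CD8 T cells and rose by 4.10 ± 0.47 (adjusted p = 0.00111), with non-PP pig 2 highest among the CD8 libraries. Of other myeloid genes, CST3 stood at 298 CPM over all members against 82.2 CPM in the CD8 gate and AIF1 at 25.9 against 5.99 CPM. Members of whole ileum pig 1 held 640 CST3 UMIs, against 7 to 249 in the other ileal libraries. LYZ was lower in members, at 2.76 against 3.44 CPM. FCER1G rose by 3.16 ± 0.33, from 27.5 to 360.1 CPM in CD8 T cells to 1184 to 1784 CPM, KLRK1 by 2.11 ± 0.22, CD244 by 1.54 ± 0.19 and KLRC1, the NKG2A inhibitory receptor chain, by 2.72 ± 0.31 (adjusted p = 0.0628 without whole ileum pig 1). KLRB1 rose by 2.63 ± 0.63 (adjusted p = 0.199 without that library), and FCGR3A fell by 1.90 ± 0.28 (-0.99 with an adjusted p of 0.443 without it).

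The genes with the largest differences included several of cell signaling. GPRC5D rose by 5.49 ± 0.31, SYK by 4.76 ± 0.48, PDGFA by 4.50 ± 0.46, AKAP5, an anchoring protein for protein kinase A, by 4.36 ± 0.34, SMPDL3A by 4.30 ± 0.26, CDH17 by 4.19 ± 0.20, LTC4S by 4.00 ± 0.23, SPATS2L by 3.77 ± 0.37 and the Src family kinase FGR by 3.64 ± 0.22. All of these kept the call without whole ileum pig 1. Those that fell were the adaptors SIT1 (-2.95 ± 0.42), GRAP2 (-2.68 ± 0.21) and SH3KBP1 (-2.58 ± 0.48), the inhibitory receptor PVRIG (-2.90 ± 0.37), the cytokine IL10 (-2.93 ± 0.28), ISG20 (-2.89 ± 0.72), RGS10 (-2.84 ± 0.43) and LAPTM5, a lysosomal protein that lowers receptor levels (-2.57 ± 0.44). Of these 8, IL10 and GRAP2 kept the call without that library, where the log2 fold change of LAPTM5 was -1.65.

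Transcription factors were higher in 10 of 23 and lower in 3 (list median 0.59), with ZBTB16 (2.16 ± 0.18), TOX (1.16 ± 0.13), IKZF2 (1.28 ± 0.19), HOPX (1.30 ± 0.18) and ID2, which holds back the T cell program in ILCs (0.73 ± 0.13), among the former and TCF7 (-1.47 ± 0.28) among the latter. ID2 and TCF7 lost the call without whole ileum pig 1 (adjusted p = 0.0967 and 0.271). Cytokines and chemokines were higher in 0 of 14 and lower in 5 (list median -0.92). IFNG, which encodes interferon gamma, was at 67.8 to 129 CPM in members and 109 to 304 CPM in CD8 T cells and fell by 1.31 ± 0.19 (adjusted p = 0.00359). XCL1 fell by 1.75 ± 0.45, CCL4 by 1.81 ± 0.29 and CCL3L1 by 1.92 ± 0.26 (CCL4 may share reads with a second entry). Of the 5 only IL10 passed without that library, where the log2 fold change of CCL3L1 was -1.10. Cytokine receptors rose in 3 of 13, IL2RB (1.71 ± 0.14) and KIT (2.33 ± 0.34) among them, and fell in 1, IL7R (-1.56 ± 0.42). Checkpoint and activation genes rose in 2 of 14, ENTPD1 (1.87 ± 0.17) and TNFRSF18 (2.12 ± 0.34), and fell in 5, with CTLA4 at -2.98 ± 0.46, ICOS at -2.67 ± 0.29, PDCD1, which encodes PD-1, at -2.49 ± 0.43 and LAG3 at -2.47 ± 0.31. Of the residence and trafficking genes 3 of 24 rose and 5 fell, CCR9 (-1.87 ± 0.16) and ITGA4 (-1.65 ± 0.24) among the latter, and ITGAE had 0.38 ± 0.23. Cell cycle genes rose in 0 of 12 and fell in 6 (list median -1.54), PCLAF (-2.09 ± 0.52) and HMGB2 (-1.51 ± 0.37) among them. Without whole ileum pig 1, IL2RB, KIT, ICOS, LAG3 and CCR9 kept the call, while IL7R, ENTPD1, TNFRSF18, CTLA4, PDCD1, ITGA4, PCLAF and HMGB2 lost it.

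Members of PP and non-PP tissue were then compared with UMIs summed per library in a fit of the 6 ileal libraries. Of 3399 genes tested with edgeR, 0 were called (0%), 121 had an unadjusted p under 0.05, and DESeq2 called 1 gene higher and 1 lower. The smallest sum, PP pig 1, held 26 cells and 69256 UMIs. The log2 fold change of PP over non-PP was -0.26 ± 0.27 for GNLY (adjusted p = 0.999), -0.27 ± 0.30 for NKG7 and -0.14 ± 0.28 for PRF1. The 2 genes of the lists with the smallest p were LTB, which encodes lymphotoxin β, at 116 and 89 CPM in PP against 3.99 and 20.6 CPM in non-PP (2.49 ± 0.50, adjusted p = 0.712), and BIRC5, a mitotic gene, at 72.2 and 153 against 43.9 and 24.2 CPM (2.15 ± 0.44, adjusted p = 0.712), both named after their values were seen. Of the lists, 0 had a called gene in either direction.

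The members also varied among themselves. Within libraries, and among 4197 genes detected in at least 5% of members, the median variance of Pearson residuals was 1.02, and the 15 genes that varied most were led by GNLY (28.3), both GZMA entries (12.4 and 7.34), FCGR3A (7.12) and ACTB, which encodes β-actin (6.75). CD52, CCL5, HSP70.2, LAPTM5, TMSB4X, COX1, CD74, TUBA1B, CTSW and TMSB10 followed, with values from 6.58 down to 3.64. FCGR3A was detected in 69.2% and 71.7% of members in PP pig 1 and non-PP pig 1 and in 31.1% to 34.7% in the other 4 libraries. LAPTM5 followed the same order, with 46.2% and 47.8% in those 2 libraries and 11.4% to 29.5% elsewhere, and CTSW was found in 42.3% and 38.1% there and 12.1% to 22.1% elsewhere. HSP70.2, a heat shock protein, showed the reverse. It stood at 28.9 and 31.9 CPM in members of PP pig 1 and non-PP pig 1 and at 711 to 1482 CPM in the other 4, whole ileum pig 1 included, and at 21.8 and 48.3 CPM in blood. The 4 ileal libraries with high HSP70.2 were those with Y-linked UMIs, and the part of the animal in these differences was not tested.

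**Figure D5:**
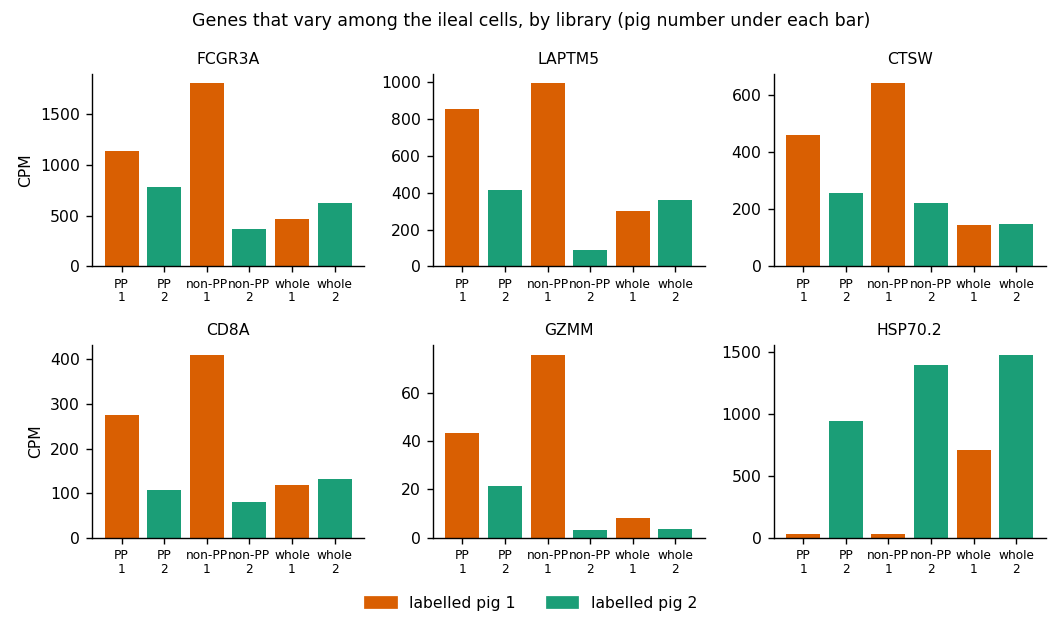
CPM of 6 genes in the CD3E-negative cytotoxic cells of each ileal library, with colors for the labelled pig and y axes that start at 0. FCGR3A, LAPTM5, CTSW, CD8A and GZMM are highest in PP pig 1 and non-PP pig 1, and HSP70.2 is lowest there.

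Transcripts of other cell types were present in the sums at low or uneven levels. All 7 genes listed for antibody-secreting cells were detected in some libraries, and their summed level was 6575 CPM in members of whole ileum pig 2, 1507 in non-PP pig 2 and 311 to 384 in the other 4, with JCHAIN as the most abundant at 6094 and 1196 CPM in those 2 libraries. JCHAIN was called higher in ileum than in blood (4.94 ± 1.35, adjusted p = 0.029), a call lost without whole ileum pig 1 (4.90, adjusted p = 0.0939). Without the members of pig 2 the log2 fold change of JCHAIN was 2.01. The 9 epithelial genes summed to 351 CPM in non-PP pig 1, with 1 of them at 0, and to 42.4 to 58.8 CPM in the other 5. The 6 stromal genes summed to 223 CPM in non-PP pig 1 (COL3A1 at 99.7) and at most 15.4 elsewhere, being all at 0 in both PP libraries. Of the 6 B cell genes, CD74 made up most of the sum of 774 to 1443 CPM, and it is also expressed by activated lymphocytes, while MS4A1 and PAX5 were at 0 in both non-PP libraries. The 10 myeloid genes summed to 578 to 1271 CPM, led by TYROBP or CST3, with CSF1R and CD68 at 0 in PP pig 1, PP pig 2 and non-PP pig 1. Hemoglobin β (HBB) was at 1359 CPM in non-PP pig 2, at most 55.8 CPM in the other ileal libraries and at 28926 and 3366 CPM in blood. Of the 12 group 3 ILC genes IL17A and TNFSF11 were at 0 in all 6 ileal libraries, and KLRB1 was the most abundant, at 101 to 361 CPM. Some of these genes passed the test of ileum against blood. Of 6 group 3 ILC genes tested, 4 rose (KIT, CXCL8, CXCL2 and IL2RA) and KLRB1 fell, with a list median of 4.77, or 3.82 with genes at 0 in a group set at their bound. Of 7 antibody-secreting cell genes, 4 rose (list median 1.21), namely JCHAIN, PRDM1 (0.94 ± 0.21), MZB1 (2.33 ± 0.44) and DERL3 (2.42 ± 0.29). Of 6 epithelial genes, CDH1 and KRT8 rose (list median 6.99, or 3.38 at the bound). Of the B cell genes CD79A rose and BLK fell, and of the myeloid genes LYZ fell. The part of these cells in the comparisons above was not tested beyond the ambient and doublet settings.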

How the data were processed

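The authors' matrices hold UMI counts of 25880 genes per barcode, deposited as raw counts from 10X Chromium v2 libraries of polyA RNA (Cell Ranger 4.0.6 per the submitters' processing notes). Symbols came from the matrices for 17733 genes and from a name table for 970 and from the study's methods for 17. Members and gene lists were chosen with earlier results of these data known. Named are genes of these lists and, per comparison, the 10 genes each way with the largest fold change among those called, with the same sign in both pigs, at least 50 CPM in the higher group and a symbol; some items are not reported here. Sums of counts over each class of a pig (over each library for PP against non-PP) were tested with edgeR 4.0.16 (filterByExpr, TMM, quasi-likelihood, R 4.3.3) without a block, with calls at an adjusted p under 0.05 and DESeq2 1.42.0 as an alternative. The tests were first tested on simulated data. The fit of PP against non-PP recovered 16% of 2-fold and 78% of 4-fold changes, with 8 false calls among 3401 genes. The other 3 comparisons recovered 27% to 45% and 79% to 86%, with 2 or 3 false calls among 8842 genes. With 2 pigs by the labels, p-values measure the spread between their sums only. Ambient profiles came from barcodes under 100 UMIs, and an alternative subtracted 10% of each sum in proportion to them. Doublets were scored with scanpy 1.11.5 and kept, 17 members among them scoring above 0.25. The pairing of the libraries by pig comes from the labels. Deviations of same-numbered library sums correlated at 0.32 (PP and non-PP), -0.02 (PP and whole ileum) and 0.13 (non-PP and whole ileum). Those of sums per pig correlated at 0.19 (members and γδ), 0.11 (members and CD8) and 0.06 (members and blood).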

Additional observations from a re-analysis of the deposited data

Results flagged for a closer look

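Y-linked transcripts lie outside the comparisons. The library labelled whole ileum pig 1, whose label is female, held Y-linked UMIs at 197 CPM, while the other 3 libraries with that label held 0 to 0.224, and this difference from its label drew attention to it.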

How the results depend on the processing

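Leaving out 1 library or sum at a time gave 445 to 700 genes higher and 362 to 746 lower for ileum against blood, 2 to 22 and 0 to 24 against γδ T cells, 126 to 282 and 34 to 225 against CD8 T cells, and 0 to 13 and 0 to 7 for PP against non-PP. The lone sum of an arm was then assumed to vary like the others. The extremes for PP were 13 higher and 3 lower without non-PP pig 1, and 5 and 7 without non-PP pig 2. Without the members of pig 2, counts were 445 and 362 against blood, 4 and 1 against γδ, and 141 and 36 against CD8 T cells. DESeq2 called 602 and 640, and 290 and 287, against blood and CD8, and 1 and 1 for PP. Without the filter on low counts there were 172 and 310 against γδ, 733 and 803 against CD8, and 8 and 7 for PP. With sums per library there were 120 and 164 against γδ and 769 lower against CD8, and at 2500 UMIs or more 600 and 618 against blood and 264 lower against CD8. Pairing by pig (replicate block) gave 121 and 212 against γδ and 718 and 891 against CD8 T cells, kept every call of a named gene, and gave 0 and 0 for PP. The cause was not tested. DESeq2 did not call RFX2 and EOMES against blood, HAVCR2 against γδ and XCL1, PCLAF and HMGB2 against CD8 T cells. At 2500 UMIs or more the calls of AHR against blood, of MFAP5 and NCR3 against γδ and of PRF1, KLRB1, XCL1, PCLAF and HMGB2 against CD8 T cells were lost, at 3 GZMB UMIs or more those of PKIB, MFAP5, TCF7 and GZMA (ENSSSCG00000016903) against γδ, and without doublets that of XCL1 against CD8 T cells. Subtracting ambient RNA ended the calls of KLRB1 and JCHAIN against blood, of TYROBP and HAVCR2 against γδ and of KLRB1 against CD8 T cells. In that order the log2 fold changes were then -2.50, 13.73, 3.20, -1.61 and 3.10, none smaller in size than in the main fit. JCHAIN held 28 and 48 UMIs in blood cells of the gate (pig 1 and pig 2) before the subtraction. A fold change against a group near 0 UMIs depends on the prior count, so that the value of 13.73 does not measure the size of the difference. No called gene that is named changed direction in these settings. Of those not called, PRF1 and NKG7 against blood turned to -0.01 and -0.02 without whole ileum pig 1 and -0.05 and -0.04 without blood of pig 1 (highest without 1 sum 0.48 and 0.42), KLRK1 against γδ to 0.04 at 2500 UMIs or more and 0.03 without γδ of pig 2 (lowest -0.22), and ITGAE against γδ to -0.09 without whole ileum pig 1 and -0.16 without γδ of pig 2 (highest 0.34). The share difference between PP and non-PP stayed positive in every setting tried, from 2.02 to 17.2 percentage points without 1 library.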
